A study of Arabidopsis thaliana with 12 samples.

Results

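Histone genes encode the proteins that package DNA into nucleosomes. A nucleosome core holds pairs of H2A, H2B, H3 and H4, and linker histone H1 binds the DNA between cores. Dividing cells make most of their core histones while DNA is copied, and variants such as H2A.Z are exchanged into chromatin at other times. In plants the transcripts of these genes carry poly(A) tails, so an array protocol that primes on poly(A) can label them. The mutated genes here, MBD4, MBD6 and MBD11, encode proteins with a methyl-CpG-binding domain, a fold that in several family members recognises methylated DNA.

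The genes described are 10 named core and variant histone genes of Arabidopsis thaliana. They comprise the H2B genes HTB1 (AT1G07790), HTB2 (AT5G22880) and HTB9 (AT3G45980), the H4 gene HIS4 (AT2G28740), the H2A genes HTA10 (AT1G51060) and HTA13 (AT3G20670), the H2A.W gene HTA12 (AT5G02560), and the H2A.Z genes HTA8 (AT2G38810), HTA9 (AT1G52740) and HTA11 (AT3G54560). A gene counted as measured when a probe set was assigned to it alone, which held for 2 of the 10, HTB1 and HTB2. The array gave 13350 genes a probe set of their own, and 22746 probe sets were tested in all. HIS4 was represented only on 5 probe sets assigned jointly to 8 H4 loci. HTB9 and the H2A, H2A.W and H2A.Z genes were not analysed here, so the values of single genes below are of H2B, H3 and H1 only. To place HTB1 and HTB2 among their relatives, 16 other histone genes with a probe set of their own and 14 probe sets shared by several H3 or H4 loci were read as well.

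The study profiled whole seedlings of accession Col-0 grown for 10 days on MS medium, on 12 arrays. The groups were T-DNA mutants labelled mbd4, mbd6 and mbd11 and wild type, with 3 biological replicates each. Which insertion lines were used was not stated in the labels, and no probe set was assigned to MBD4, MBD6 or MBD11 alone. The comparisons ask which transcripts change when each gene is disrupted. Values are deposited log2 intensities. Changes are log2 differences from wild type, with n = 3 in every group. In whole seedlings, fewer cells that make a transcript and less transcript per cell cannot be told apart.

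The mbd11 arrays stood apart from the other 9. Their correlations with the other genotypes ran from 0.900 to 0.960, while no pair among the other 9 arrays was below 0.979. The lowest was that of mbd11 replicate 2, while for mbd11 replicates 1 and 3 the lowest were 0.947 and 0.950. Intensities on mbd11 replicate 2 were also spread less widely, with an interquartile range of 2.83. It was 3.63 and 3.58 on the other mbd11 arrays and 3.83 to 3.94 on the other 9. Plant control transcripts are probed at both ends, and the 3' signal exceeded the 5' signal (the 3'-5' gap, which reflects RNA integrity and labelling) by 1.98 to 2.58 on mbd11 arrays and by 1.17 to 1.4996 on wild-type arrays. On mbd4 replicate 3 the gap was 2.08. Replicates scattered more in mbd11, with a median SD over probe sets of 0.353, against 0.134 in mbd4, 0.118 in mbd6 and 0.112 in wild type. Of 15 listed green-tissue genes 4 were measured, with summed levels (log2 of summed intensities) of 13.84 to 14.10 in mbd11, 14.77 to 14.83 in mbd4, 14.66 to 14.76 in mbd6 and 14.90 to 14.96 in wild type. Of 10 listed root genes PYK10 and EXPA7 were measured, with summed levels of 10.54 to 11.12 in mbd11, 12.31 to 12.46 in mbd4, 12.32 to 12.51 in mbd6 and 12.42 to 12.55 in wild type. All 4 green-tissue genes and PYK10 passed the test as lower in mbd11, and SBPASE did so in mbd6 (-0.52, adjusted p = 0.0117). Over all probe sets 19.7% passed as lower in mbd11, and 6.91% passed in mbd6 in either direction. Fits with the 3'-5' gap as a covariate and without single arrays are given below. Otherwise the part of these differences in the histone values was not tested. Every mbd11 array had a wider gap than every other array except mbd4 replicate 3. The covariate fit can therefore separate the gap from the mbd11 genotype only weakly.

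HTB2 and HTB1 were higher in mbd11 than in wild type. Both encode histone H2B, which pairs with H2A and is the core histone that carries a regulatory ubiquitin in transcribed genes. In mbd11 HTB2 was at 9.80, 10.04 and 9.82, against 8.89, 9.20 and 8.81 in wild type. Every mbd11 array lay above every wild-type array, as 25% of all probe sets did, and the gap between the groups was wider than the range of either. HTB2 rose by 0.92 (SE 0.14), or 1.89-fold (limma moderated test, Benjamini-Hochberg adjusted p = 0.000341). The 95% interval of the change was 0.61 to 1.23, and the call held under each of the 21 alternatives run (changes of 0.73 to 1.09, adjusted p 0.000165 to 0.0245).

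HTB1 was at 9.49, 9.79 and 9.02 in mbd11, against 8.89, 8.82 and 8.87 in wild type. The mbd11 values did not overlap those of wild type, but they spanned a far wider range, with replicate 3 close to wild type. HTB1 rose by 0.57 (SE 0.19), or 1.49-fold (adjusted p = 0.0273), with a 95% interval of 0.17 to 0.98. This call held under 14 of 21 alternatives (adjusted p 0.00229 to 0.112). The call was gone without wild-type replicate 1 (adjusted p = 0.0623), 2 (0.0781) or 3 (0.0678), and without mbd11 replicate 1 (0.0537) or 2 (0.0626). It was also gone with only the 6 arrays compared (0.0986) and when arrays were weighted by their genotype's spread (0.112). Without mbd11 replicate 2 the change was 0.40, and with the 3'-5' gap in the model it was 1.03.

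**Figure D1:**
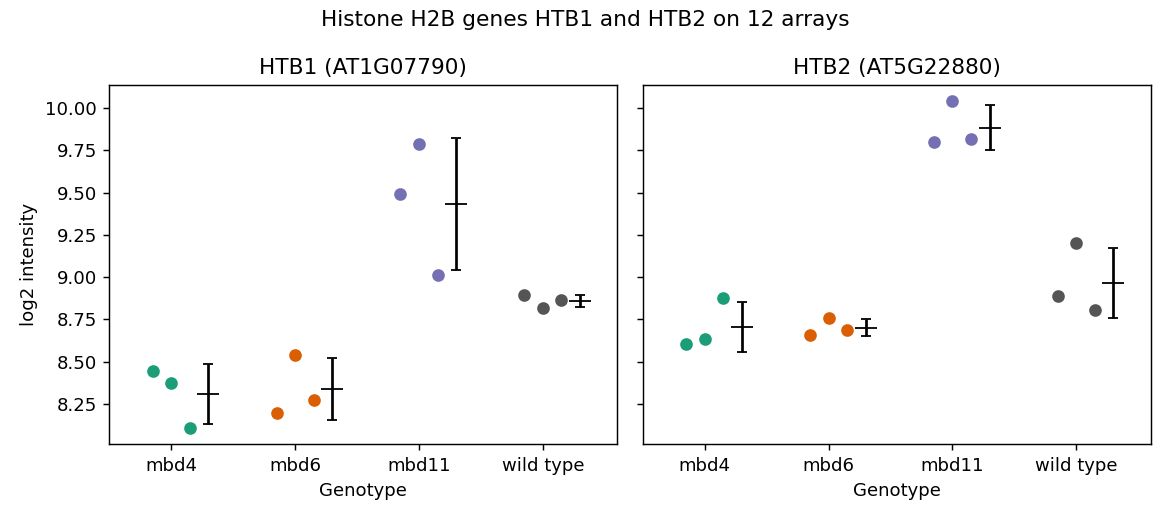
Log2 intensity (vertical axis) of HTB1 and HTB2 on each array, grouped by genotype, with points for the 3 replicates and a bar for the mean ± SD. The mbd11 points lie above all others for both genes, and for HTB1 the mbd4 and mbd6 points lie below wild type.

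In mbd4 and mbd6 neither gene passed the test. HTB1 was at 8.44, 8.38 and 8.11 in mbd4, against 8.89, 8.82 and 8.87 in wild type. It was at 8.19, 8.54 and 8.27 in mbd6. Neither mutant overlapped wild type, whose 3 arrays lay within a narrow band. Over all probe sets 15.7% lay below wild type without overlap in mbd4 and 19.6% in mbd6. The change of HTB1 was -0.55 in mbd4 (SE 0.19, 95% interval -0.95 to -0.15; adjusted p = 0.206 over all probe sets, unadjusted p = 0.0116). In mbd6 it was -0.52 (SE 0.19, 95% interval -0.93 to -0.12; adjusted p = 0.143, unadjusted p = 0.0154). Both fits share the spread of the mbd11 arrays. Without those arrays the same changes passed, with adjusted p = 0.0116 in mbd4 and 0.00831 in mbd6, as they did without mbd11 replicate 2 alone (0.0378 and 0.028). Over all alternatives the adjusted p ran from 0.00656 to 0.567 in mbd4, with 4 of 22 past the threshold, and from 0.00249 to 0.424 in mbd6, with 6 of 22. Both comparisons use the same 3 wild-type arrays.

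HTB2 differed less. In mbd4 it was at 8.61, 8.64 and 8.88, overlapping the wild-type values of 8.89, 9.20 and 8.81. In mbd6 it was at 8.66, 8.76 and 8.69, just below the lowest wild-type array. The changes were -0.26 in both mutants (SE 0.14; 95% interval -0.57 to 0.05 in each; adjusted p = 0.61 in mbd4 and 0.427 in mbd6). None of the 22 alternatives brought either past the threshold, with adjusted p of 0.196 to 0.964 in mbd4 and 0.102 to 0.888 in mbd6.

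The genotypes ran from mbd11 at the top through wild type to mbd4 and mbd6 for both genes. The group means of HTB2 were 9.89 ± 0.14 in mbd11, 8.71 ± 0.15 in mbd4, 8.70 ± 0.05 in mbd6 and 8.96 ± 0.21 in wild type (SD). Those of HTB1 were 9.43 ± 0.39 in mbd11, 8.31 ± 0.18 in mbd4, 8.34 ± 0.18 in mbd6 and 8.86 ± 0.04 in wild type. The neighbours mbd6 and mbd4 did not differ beyond their spread. The mbd6 minus mbd4 difference was -0.01 for HTB2 (95% interval -0.32 to 0.30) and 0.03 for HTB1 (-0.38 to 0.43; adjusted p = 0.999 for each). Between mbd11 and the other mutants both genes passed. HTB2 was higher by 1.18 in mbd11 than in mbd4 (adjusted p = 7.21e-05) and by 1.18 than in mbd6 (6.26e-05), and HTB1 by 1.12 (0.000575) and 1.10 (0.00066). Over all probe sets 42.3% were called between mbd11 and mbd4 and 42.4% between mbd11 and mbd6, with 22.5% higher in mbd11 in each, and 2.05% were called between mbd6 and mbd4.

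The count of 2 of 2 called in mbd11 stands beside a background in which 40.2% of all 22746 probe sets were called, 20.4% as higher. In mbd4 and mbd6 the counts were 0 of 2 by limma's test, beside 2.3% and 6.91% of all probe sets called at the same adjusted threshold. At an unadjusted p under 0.05 stood 1 of 2 in each. No share over all probe sets was taken at an unadjusted p, here or for the lists below. The median change of the pair was 0.75 in mbd11, -0.40 in mbd4 and -0.39 in mbd6, and over all probe sets it was 0.12, -0.03 and -0.03 in the same order.

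Changes in mbd11 differed by level, so each gene was read against the probe sets whose mean over the 12 arrays lay within 0.5 of its own. The 1685 such probe sets near HTB2 had a median of -0.31 in mbd11, and 18.2% were called higher and 41.6% lower. HTB2 was above 92.9% of them. The 2130 probe sets near HTB1 had a median of -0.28, with 17.7% called higher and 39.2% lower, and HTB1 was above 85.5% of them. In mbd4 the neighbouring medians were -0.02 for HTB2 and -0.01 for HTB1, and 16.2% and 3.8% of neighbours had a lower change than HTB2 and HTB1. In mbd6 those shares were 22.1% for HTB2 and 8.83% for HTB1, around neighbouring medians of -0.01 and -0.02.

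**Figure D2:**
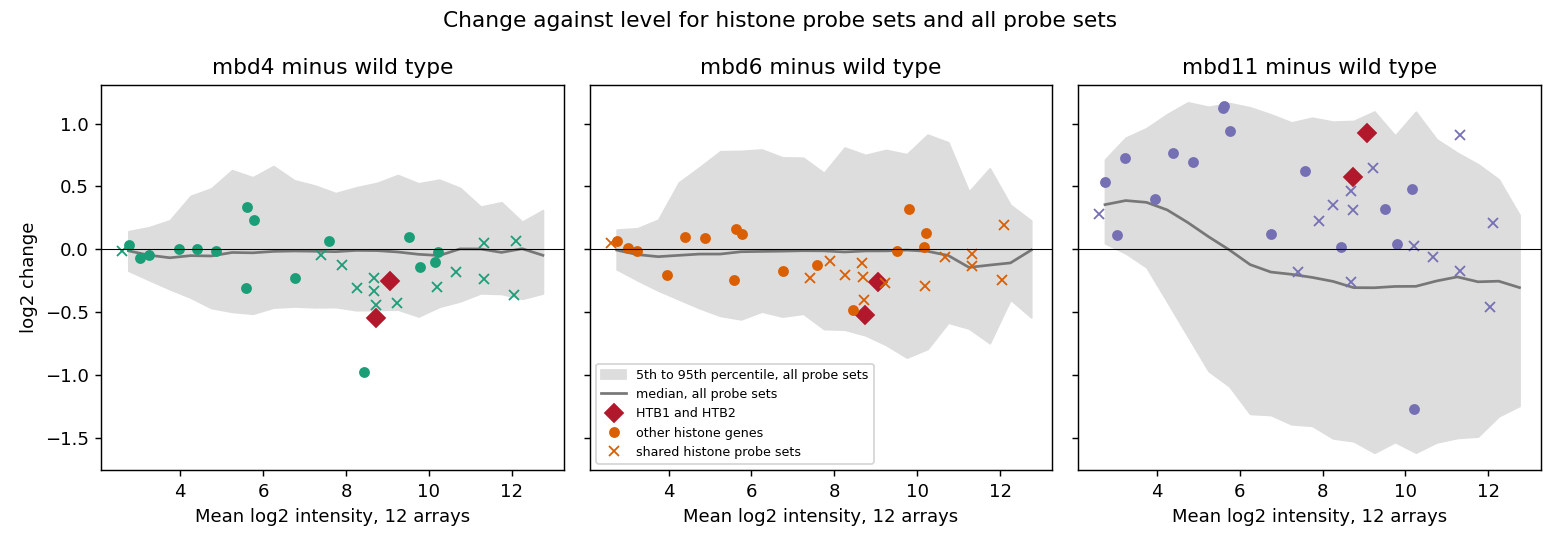
Log2 change in each mutant (vertical axis) against the mean log2 intensity over 12 arrays (horizontal axis). Grey shows the median and the 5th to 95th percentile of all probe sets per level bin, diamonds are HTB1 and HTB2, circles the other histone genes and crosses the shared probe sets. In mbd11 the grey median falls from positive at low levels to negative at high levels, and HTB1 and HTB2 lie above it.

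Of the other H2B family genes 8 had a probe set of their own. In mbd11 6 of the 8 passed as higher and 0 as lower, against 20.4% and 19.7% of all probe sets. AT3G53650 was at 6.47, 6.46 and 6.12 in mbd11, against 5.31, 5.47 and 4.84 in wild type, without overlap. AT3G53650 rose by 1.14 (SE 0.20; adjusted p = 0.000703), a call held under all 21 alternatives. AT3G09480 rose by 0.94 (adjusted p = 0.00276), a call held under 19 of 21 alternatives (0.00046 to 0.203). AT2G37470 rose by 0.62 (adjusted p = 0.021), held under 15 of 21 (0.000121 to 0.339) and gone without wild-type replicate 1 (0.0734), mbd11 replicate 1 (0.0639) or mbd11 replicate 3 (0.055).

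HTB4 was at 10.45, 10.56 and 10.59 in mbd11, against 10.04, 10.16 and 9.96 in wild type, without overlap. HTB4 rose by 0.48 (adjusted p = 0.0125), held under 17 of 21 alternatives (0.00397 to 0.331) and gone without wild-type replicate 3 (0.0542). With the 3'-5' gap in the model AT3G09480, AT2G37470 and HTB4 all missed the threshold (adjusted p = 0.203, 0.339 and 0.331). AT1G08170 rose by 0.76 and held under all 20 alternatives that kept it (adjusted p 0.00151 to 0.0278). AT5G02570 rose by 0.70, held under 16 of 21 (0.000767 to 0.248) and gone without wild-type replicate 1 (0.0523) or 3 (0.0553). AT1G08170 averaged under 5 in every genotype. The neighbours of similar level had medians of 0.30 for AT1G08170 and 0.17 for AT5G02570 in mbd11. HTB11 was at 9.57, 9.69 and 9.93 in mbd11, against 9.32, 9.45 and 9.45 in wild type, which do not overlap, but the change of 0.32 did not pass (adjusted p = 0.101). AT2G28720 changed by 0.12 without passing (adjusted p = 0.605). In mbd4 and mbd6 these 8 H2B genes had changes of -0.23 to 0.34 and -0.18 to 0.16, medians of 0.04 and 0.05, and 0 calls by limma's test, with 0 at an unadjusted p under 0.05 as well. The HTB1 change of -0.55 in mbd4 and -0.52 in mbd6 lay outside both ranges. Whether it differed from theirs was not tested.

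**Figure D3:**
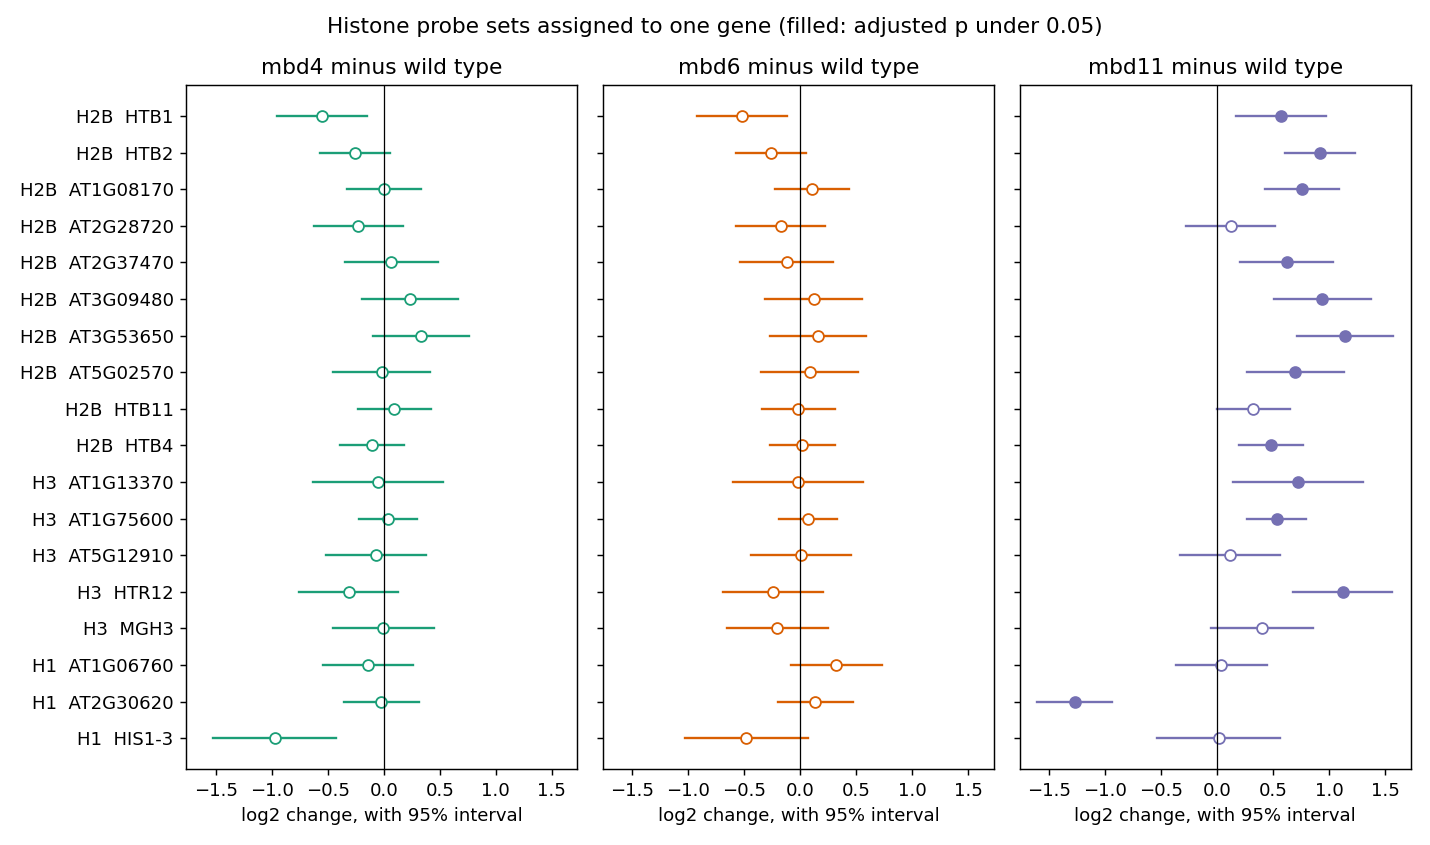
Log2 change with its 95% interval (horizontal axis) for 18 histone probe sets of 1 gene in each mutant, with filled points where the adjusted p was under 0.05. Filled points appear only for mbd11, 11 to the right of 0 and AT2G30620 to the left.

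Of the H3 genes with a probe set of their own, 3 of 5 passed as higher in mbd11 and 0 as lower, beside 20.4% and 19.7% of all probe sets. Those shares cover all levels, while probe sets with a mean level of 3 to 3.5 had a median change of 0.39 in mbd11. The median change of the 5 was 0.53, and the medians of their neighbours of similar level had a median of 0.37. HTR12, the H3 variant that marks centromeres, was at 6.79, 6.92 and 5.996 in mbd11, against 5.29, 5.49 and 5.56 in wild type. The groups did not overlap, and HTR12 rose by 1.12 (SE 0.20; adjusted p = 0.00103), or 2.18-fold. Its neighbours of similar level had a median of 0.03, and the call held under all 21 alternatives. In mbd4 HTR12 was at 5.05, 5.15 and 5.21, and in mbd6 at 5.23, 5.29 and 5.09, below every wild-type array in each. In mbd6 the separation was slight, with replicate 2 at 5.2915 and wild-type replicate 1 at 5.2938. Over all probe sets 15.7% lay below wild type without overlap in mbd4 and 19.6% in mbd6. The HTR12 changes of -0.31 in mbd4 and -0.24 in mbd6 did not pass (adjusted p = 0.726 and 0.725).

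The other H3 probe sets were dim. AT1G75600 rose by 0.53 and AT1G13370 by 0.73 in mbd11, with neighbouring medians of 0.37 and 0.38. AT1G13370 held under only 5 of 20 alternatives. It overlapped wild type, with mbd11 replicate 2 at 4.58 and the other mbd11 arrays at 3.56 and 3.27, and without that replicate its change was 0.34 (adjusted p = 0.0945; 0.0085 to 0.296 over all alternatives). With values under 4 raised to 4, AT1G75600 had a change of 0, since all its values were lower than that. MGH3, an H3 gene of the male germ line, and AT5G12910 did not pass (0.40 and 0.12).

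Of 3 linker histone genes 0 passed as higher and 1 as lower in mbd11, too few to set against the 20.4% and 19.7% over all probe sets. AT2G30620, an H1 gene, was at 9.31, 8.88 and 9.52 in mbd11, against 10.43, 10.60 and 10.49 in wild type. All mbd11 values were below all others. AT2G30620 fell by 1.27 (SE 0.15; adjusted p = 6.3e-05) to 0.415 of wild type, against a median of -0.30 among its neighbours, and the call held under all 21 alternatives. AT1G06760, another H1 gene, changed by 0.04 in mbd11 (adjusted p = 0.875).

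HIS1-3, an H1 variant known to be induced by drought, showed its widest difference in mbd4. It was at 7.70, 7.70 and 8.09 in mbd4, against 8.84, 8.90 and 8.68 in wild type. The groups did not overlap, and the change was -0.97 (SE 0.25; adjusted p = 0.075), just short of the threshold. Over 22 alternatives the adjusted p ran from 0.0015 to 0.274 and 6 passed, among them the fit without mbd11 arrays (0.025). In mbd6 HIS1-3 was at 9.06, 8.02 and 7.89, with replicate 1 above wild type and the others below it, and the change was -0.48 (adjusted p = 0.401). Without mbd6 replicate 1 it fell by 0.85 (adjusted p = 0.0158; 0.0158 to 0.899 over all alternatives), the only 1 of 22 alternatives past the threshold. Without that array HIS1-3 in mbd4 passed too (0.0055). In mbd11 the change was 0.01 (adjusted p = 0.968).

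As a list, the 16 other histone genes had 9 higher and 1 lower call in mbd11, with a median change of 0.51. Over all probe sets 20.4% were called higher and 19.7% lower, and the median was 0.12. The medians of their neighbours of similar level had a median of 0.01 over the 16 genes, and of 0.37 over the 5 H3 genes among them. The counts were 9 and 1 without mbd11 replicate 2, 6 and 1 without wild-type replicate 1, 4 and 1 with the 3'-5' gap in the model, and 3 and 1 with weighted arrays. In the same order these fits called 5217, 3211, 2528 and 2317 of all 22746 probe sets higher, against 4649 in the main fit. They called 4840, 3705, 3301 and 2945 lower, against 4492. In mbd4 and mbd6 the list had 0 calls by limma's test, with 1 and 0 at an unadjusted p under 0.05, and medians of -0.02 and 0.01.

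In the platform annotation HIS4 and the other H4 genes are only on the 5 shared probe sets, so no value below is credited to a single locus. Probe sequences were not checked for these or the shared H3 probe sets. Which of its assigned loci each probe set detects was therefore not determined. The 8 loci encode the same H4 protein. The probe set 247692_s_at was at 12.03, 12.37 and 11.90 in mbd11, against 11.18, 11.22 and 11.18 in wild type. It was well above wild type on every mbd11 array and rose by 0.91 (SE 0.15; adjusted p = 0.000505), a call held under all 21 alternatives. The other 4 H4 probe sets did not pass in mbd11, with 252562_s_at at 0.31, 251924_at at -0.06, 266226_at at -0.18 and 261408_s_at at -0.26. Probe sets assigned to the same H4 loci therefore gave different changes on the same arrays. The count of 1 of 5 called higher is set beside 20.4% of all probe sets.

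**Figure D4:**
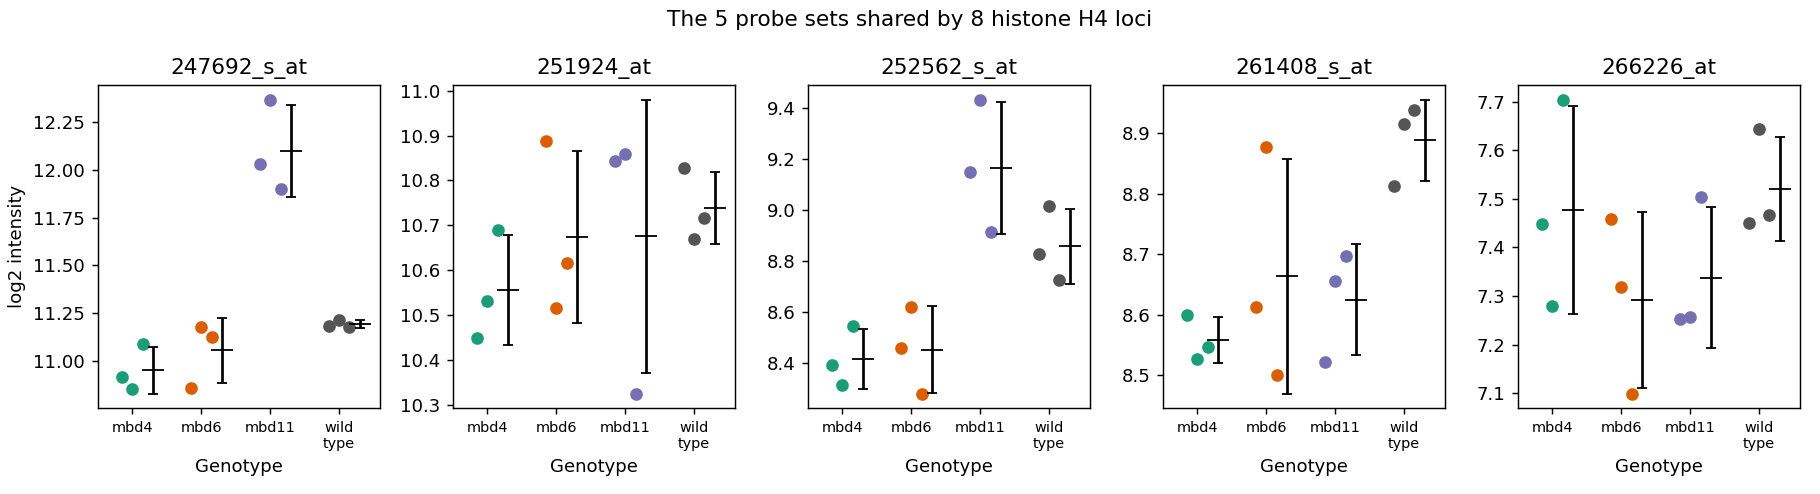
Log2 intensity (vertical axes, one scale per panel) of the 5 probe sets shared by 8 H4 loci on each array, grouped by genotype, with points for the 3 replicates and a bar for the mean ± SD. All mbd11 points lie above all wild-type points on 247692_s_at, and on 261408_s_at all lie below them.

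In mbd4 all 5 H4 probe sets had negative changes, from -0.04 to -0.44, and 3 of 5 lay below wild type without overlap, beside 15.7% of all probe sets. The widest was that of 252562_s_at, at 8.39, 8.31 and 8.54 in mbd4, against 8.83, 9.02 and 8.73 in wild type. Its change of -0.44 did not pass (adjusted p = 0.257; 0.034 without mbd11 arrays, 0.0236 to 0.629 over all alternatives). In mbd6 the changes of the 5 were -0.06 to -0.41, with 1 of 5 below wild type without overlap, beside 19.6% of all probe sets. There 252562_s_at was again the widest, at 8.46, 8.62 and 8.28 (adjusted p = 0.197; 0.0307 without mbd11 arrays, 0.013 to 0.549 over all alternatives).

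The H3.1 genes, whose protein is placed mainly during DNA replication, shared 5 probe sets across 5 loci. In mbd11 264262_at rose by 0.64 (SE 0.18; adjusted p = 0.0137), at 9.75, 10.29 and 9.59 in mbd11, against 9.19, 9.17 and 9.34 in wild type. The call held under 19 of 21 alternatives (adjusted p 0.00476 to 0.0822) and was gone with only the 6 arrays compared (0.0674) and with weighted arrays (0.0822). The other 4 changed by 0.02 to 0.47 without passing. The 1 higher call of 5 in mbd11 stands beside 20.4% of all probe sets called higher. In mbd4 the 5 changed by -0.13 to -0.42, with 4 of 5 below wild type without overlap, and in mbd6 by -0.10 to -0.30, with 2 of 5. The shares over all probe sets were 15.7% in mbd4 and 19.6% in mbd6. None passed in either mutant. In mbd4 264262_at was at 8.87, 8.77 and 8.78, a change of -0.42 (adjusted p = 0.39; 0.0413 without mbd11 arrays, 0.0233 to 0.881 over all alternatives).

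The 3 probe sets shared by the H3.3 loci, whose protein is placed outside replication, gave mixed values. In mbd11 252824_at fell by 0.46 (adjusted p = 0.0415; 0.0167 to 0.297 over all alternatives, 6 of 21 past the threshold, and a change of -0.24 without mbd11 replicate 2), 250397_at changed by -0.17 and 252849_at by 0.21. Over all 14 shared probe sets, 2 passed as higher and 1 as lower in mbd11, shares no larger than the 20.4% and 19.7% over all probe sets. The counts were 4 and 0 without mbd11 replicate 2, 4 and 1 without mbd11 replicate 3, 5 and 0 with quantile normalization, 4 and 0 with median centring, and 1 and 0 with only the 6 arrays or with weighted arrays. In the same order these fits called 5217, 5705, 3862, 5903, 2225 and 2317 of all 22746 probe sets higher. They called 4840, 5052, 4005, 3938, 2875 and 2945 lower. Among the 14, no lower call was made without any 1 of the wild-type, mbd4 or mbd6 arrays. Limma's test called 0 of the 14 in mbd4 and 0 in mbd6, where 4 and 1 had an unadjusted p under 0.05, all of them lower. The share of all probe sets at that unadjusted p was not taken. Without mbd11 arrays 3 of the 14 were called lower in mbd4 and 1 in mbd6, beside 1041 and 2036 of all 22746 probe sets. The median change of the 14 was 0.22 in mbd11, -0.24 in mbd4 and -0.17 in mbd6. Probe sets of the same loci are not independent of each other.

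**Figure D5:**
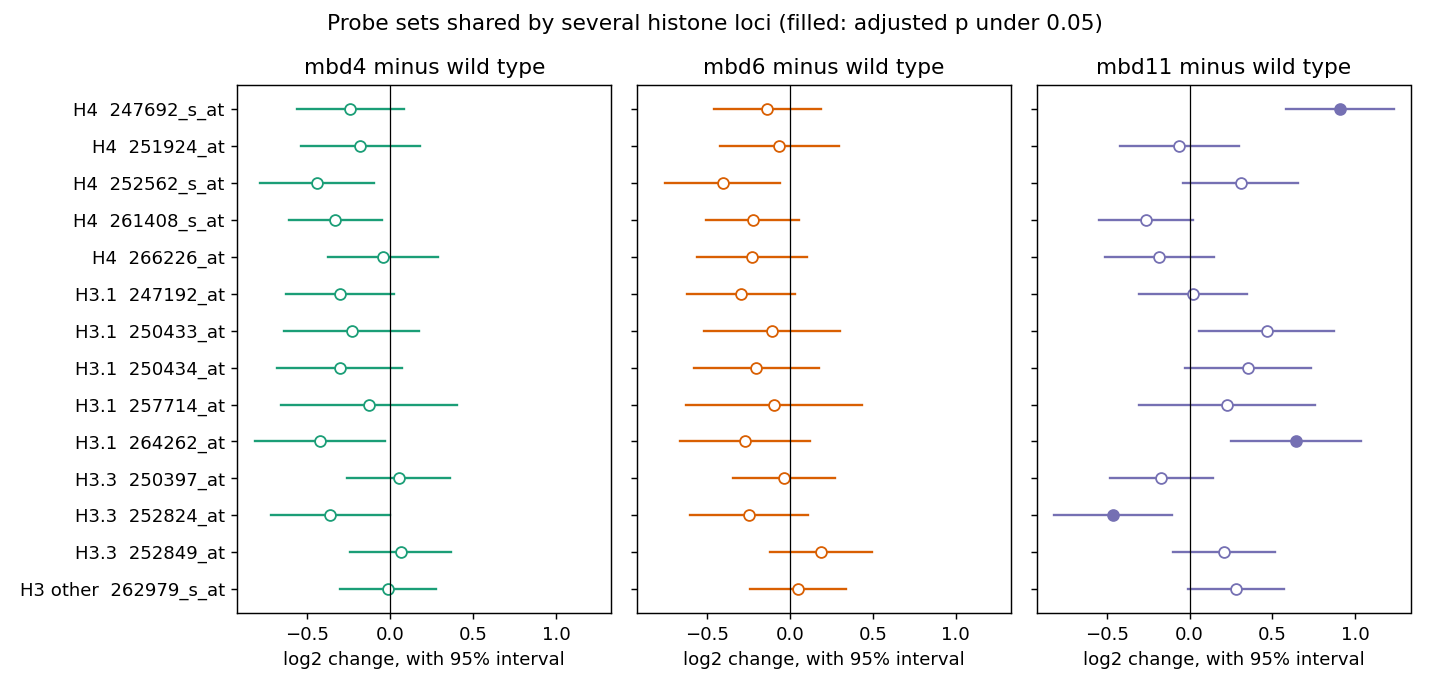
Log2 change with its 95% interval (horizontal axis) for 14 probe sets shared by several histone loci, by family, in each mutant, with filled points where the adjusted p was under 0.05. In mbd11 247692_s_at and 264262_at lie right of 0 and 252824_at left, while in mbd4 all H4 and H3.1 points lie left of 0.

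Few genes of histone supply and cell division could be read beside them. Of 31 listed genes of histone chaperones, H2A.Z and H2A.W deposition and H2B ubiquitination 6 were measured. SWC2, a subunit of the SWR1 complex that places H2A.Z, was at 5.70, 6.03 and 5.50 in mbd11, against 6.21, 6.46 and 6.44 in wild type, and fell by 0.63 (adjusted p = 0.0065). The other 5 did not pass in any mutant. The 1 lower call of 6 in mbd11 stands beside 19.7% of all probe sets called lower. The medians of the neighbours of similar level had a median of -0.19 over the 6 genes. SGA2 and ASF1B, chaperones of H3 and H4, changed by -0.38 and -0.37 in mbd11, without passing (adjusted p = 0.0928 and 0.144). SGA2 alone of those 5 had an unadjusted p under 0.05 (0.0459, in mbd11).

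Of 29 listed DNA replication and S-phase genes 2 were measured, and of 19 listed mitotic genes 3. None passed against wild type in any mutant by limma's test, and at an unadjusted p under 0.05 stood AUR1 in mbd4 and PRL in mbd6 and mbd11. PRL, a subunit of the replicative helicase, was at 7.44, 8.10 and 7.58 in mbd11, 6.91, 7.03 and 6.83 in mbd4, and 6.42, 6.88 and 6.68 in mbd6, against 7.34, 7.15 and 7.30 in wild type. The mbd11 arrays lay above wild type and the others below it, with changes of 0.44, -0.34 and -0.61 (adjusted p = 0.0673, 0.566 and 0.0681). Over all probe sets 25% lay above wild type without overlap in mbd11, and 15.7% in mbd4 and 19.6% in mbd6 lay below it. ICU2, the other of the 2 replication genes, overlapped wild type in every mutant. Its mean was 5.24 in mbd11 against 5.52 in wild type, with changes of -0.28 in mbd11, -0.09 in mbd4 and -0.20 in mbd6. PRL was higher in mbd11 than in mbd6 by 1.05 (adjusted p = 0.000716) and than in mbd4 by 0.78 (0.00466). The Aurora kinase genes of mitosis, AUR1, AUR2 and AUR3, changed by -0.43, -0.50 and -0.25 in mbd4, each below wild type without overlap, as were 15.7% of all probe sets, and by -0.06, -0.35 and 0.48 in mbd11. None passed against wild type. Between mutants AUR3 was higher in mbd11 than in mbd4 by 0.72 (adjusted p = 0.0227) and than in mbd6 by 0.65 (0.0369), and AUR1 was higher in mbd11 than in mbd4 by 0.38 (0.0468), where 22.5% of all probe sets were called higher in each comparison. AUR2 ranged in mbd11 from 5.19 on replicate 2 to 7.14 on both other arrays.

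Patterns most like those of the H2B pair were sought among 13511 other probe sets of 1 gene, by Pearson correlation over the 9 arrays of mbd4, mbd6 and wild type. These arrays share their genotype differences, so the values only describe. Nearest to HTB1 were AT2G43610 (0.98), AT5G19730 (0.98) and AT3G21960 (0.98), and nearest to HTB2 were AT5G57785 (0.96), AT1G15810 (0.95) and AT5G41440 (0.95). Over all 12 arrays AT5G57785 stayed at 0.97 with HTB2, while AT5G41440 was at 0.70 and AT1G15810 at -0.55. With HTB1 AT3G21960 was at 0.88, AT5G19730 at 0.64 and AT2G43610 at -0.05. AT5G41440 and AT3G21960 were dim, averaging under 4 in every genotype. AT5G57785 averaged 9.44 in mbd11, 7.998 in mbd4, 7.89 in mbd6 and 8.52 in wild type.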

How the data were processed

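The deposited values are log2 intensities per probe set. RMA and R 2.11 appear in the submitters' processing notes. Per the labels' protocols, biotinylated RNA was prepared by the revised 3' IVT method from total RNA of whole seedlings. Scan dates were not used here. The table held 22810 probe sets on 12 arrays, and 64 control probe sets were left out of the tests. In the platform annotation 13513 of the 22746 tested have a single gene, 503 have more than 1 and 8730 have none. RefSeq's table of TAIR10.1 held the loci of 13436 of the 13513.

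One linear model with a mean for every genotype was fitted to the 12 arrays in limma (version 3.58.1, R 4.3.3), followed by empirical Bayes moderation on 8 residual and 4.43 prior degrees of freedom. Tests were two-sided, and Benjamini-Hochberg adjustment within a comparison ran over all 22746 probe sets, with a threshold of 0.05. Precision is limited by 3 arrays per group. Probe sets of similar level were within 0.5 of a gene's mean over the 12 arrays.

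The members, lists and tests were chosen with earlier results of these data known. By the naming rule, every measured member was named, then list genes past the threshold (up to 6 per list and comparison) with up to 3 others, and the 3 probe sets most correlated with each member. Histone genes named beyond this, HIS1-3 among them, and the shared probe sets were chosen after their values were seen. The alternatives were a fit of only the 6 arrays compared, a fit without mbd11 arrays, weights by genotype spread, median centring, quantile normalization, the 3'-5' gap as a covariate, a replicate block, leaving out probe sets averaging under 5 in every genotype, a floor of 4, a trended robust prior, and leaving out each array. Their use on other histone genes was chosen after seeing the data. The fit was tested on simulated data. Figures were drawn with matplotlib 3.10.9.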

Additional observations from a re-analysis of the deposited data

Results flagged for a closer look

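Both H2B genes differed between mutants in a direct test, and this is why they are listed here. HTB2 was higher in mbd11 than in mbd4 by 1.1782 (adjusted p = 7.21e-05) and than in mbd6 by 1.1845 (6.26e-05). HTB1 was higher in mbd11 than in mbd4 by 1.1234 (adjusted p = 0.000575) and than in mbd6 by 1.0952 (0.00066). The p-values are from limma's moderated test over all probe sets. The 3'-5' gap of plant control transcripts was 1.98 to 2.58 on mbd11 arrays, 1.08 to 2.08 on mbd4 arrays and 1.20 to 1.2975 on mbd6 arrays, and its part in these differences was not tested.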

How the results depend on the processing

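Direction was kept by HTB1 and HTB2 in every mutant under all alternatives run. The count of the pair called in mbd11 was 1 in place of 2 with only the 6 arrays compared and with weighted arrays, and 1 to 2 when single arrays were left out. In mbd4 it was 1 in place of 0 with only the 6 arrays, without mbd11 arrays and with weights, and 0 to 1 over single arrays left out. In mbd6 it was 1 in place of 0 under the same 3 settings and with the 3'-5' gap as a covariate, and 0 to 1 over single arrays left out. In each case the gene was HTB1. Over all probe sets, only the 6 arrays gave 2004 calls in mbd4 (523 in the fit over 12 arrays), 4535 in mbd6 (1572) and 5100 in mbd11 (9141), and 1779 for mbd6 minus mbd4 (467), 4510 for mbd11 minus mbd4 (9621) and 5069 for mbd11 minus mbd6 (9636). Without mbd11 arrays there were 2212 in mbd4, 4106 in mbd6 and 2470 for mbd6 minus mbd4. Weighted arrays gave 2389, 4880 and 5262 in mbd4, mbd6 and mbd11, and 2463, 5002 and 5261 for mbd6 minus mbd4, mbd11 minus mbd4 and mbd11 minus mbd6. The covariate gave 5829 in mbd11 and 5790 for mbd11 minus mbd6. Leaving out single arrays gave 259 to 1464 calls in mbd4, 807 to 3155 in mbd6 and 157 to 1638 for mbd6 minus mbd4. The highest of each came without mbd11 replicate 2. The cause was not tested. Same-numbered mutant and wild-type arrays did not deviate together (correlations of -0.38 to 0.12), so numbers were not taken to pair them. With the replicate block HTB2 rose by 0.92 (adjusted p = 0.000813) and HTB1 by 0.57 (0.0221) in mbd11, with no call gained or lost for the pair. Probe sets near background intensity, AT1G75600 and AT1G13370 among them, limit what can be read as a change.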
